A study of Mus musculus with 3 samples.

Results

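Cxcr3, Cxcr4, Cxcr5, Cxcr6 and Cx3cr1 are the genes of the CXC and CX3C chemokine receptors described here. They were picked by a rule on gene names, which reads no measured value, from the 55536 annotated genes of the gene tables, and all 5 were found there. Chemokine receptors are membrane proteins with several helices that couple to inhibitory G proteins and steer migrating cells along gradients of small secreted proteins. In T cells, Cxcr3 binds the interferon-induced ligands Cxcl9, Cxcl10 and Cxcl11 and guides cells into inflamed tissue, while Cxcr5 binds Cxcl13 and guides them into B cell follicles. Cxcr4 binds Cxcl12, a cue for bone marrow and lymphoid tissue, Cxcr6 binds the membrane-bound Cxcl16, and Cx3cr1 binds the membrane-bound Cx3cl1 and is best known from monocytes, microglia and cytotoxic lymphocytes.

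The RNA came from primary regulatory T cells (Treg), CD4 T cells that restrain immune responses under the transcription factor Foxp3, which the labels describe as having experienced inflammation. They were taken from a male adult mouse of 16 weeks and of the strain Foxp3GFP-DTRCD4CreERT2R26tdTomato. All of the libraries share this genotype, whose name gives GFP and the diphtheria toxin receptor at Foxp3, a tamoxifen-activated Cre recombinase driven from Cd4, and a tdTomato reporter at R26. The sources used here do not say how inflammation was induced, whether tamoxifen or diphtheria toxin was given, or how the cells were isolated, and the labels name the whole organism, not an organ, as the origin. PolyA-selected RNA of 1 biosample from 1 donor was sequenced as 3 technical replicates, called libraries 1, 2 and 3 after the replicate numbers in the labels. With 1 group and no second condition, the only test possible compares these libraries with each other. Every SD has n = 3 libraries and, like every p-value, measures the spread between libraries of 1 biosample, not between animals.

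The libraries held 17535472 to 20996194 expected counts. All 9 T cell identity genes and all 6 Treg identity genes of the lists were at 1 TPM or more in every library, with medians of 1326 and 307.6 TPM. TPM counts transcripts relative to all transcripts of a library and is a level scaled for transcript length and depth. In a chi-square test of counts against Poisson sampling, 9501 of the 14877 genes that averaged at least 10 counts differed between the libraries, which is 63.9% of those tested. Library 3 stood apart. Its log2(TPM + 1) was more than 1 below the mean of the other libraries for 1533 genes and more than 1 above it for 96 genes.

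The receptors share the helix bundle of their class, and the stretch below shows it at the RNA level. It is the coding sequence around the motif at the inner end of the third membrane helix, a place where receptors of this class contact G proteins. Each stretch has 51 bases of the GENCODE transcript on mm10, and the capitals mark the 9 bases, or 3 codons, of the motif. The stretches lie at chrX:101732584-101732634 on the minus strand for Cxcr3, chr9:44513885-44513935 on the minus strand for Cxcr5, chr9:123810320-123810370 on the plus strand for Cxcr6, chr1:128589488-128589538 on the minus strand for Cxcr4 and chr9:120051924-120051974 on the minus strand for Cx3cr1.
Cxcr3: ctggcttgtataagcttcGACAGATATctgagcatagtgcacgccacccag
Cxcr5: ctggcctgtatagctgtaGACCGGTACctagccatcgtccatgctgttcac
Cxcr6: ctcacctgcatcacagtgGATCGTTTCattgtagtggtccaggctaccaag
Cxcr4: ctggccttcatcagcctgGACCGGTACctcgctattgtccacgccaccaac
Cx3cr1: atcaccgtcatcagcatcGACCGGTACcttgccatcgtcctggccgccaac
Cxcr4, Cxcr5 and Cx3cr1 carried the same motif bases, GACCGGTAC, while Cxcr3 had GACAGATAT and Cxcr6 had GATCGTTTC. Their whole coding sequences, of 1056 to 1125 bases with the stop codon, were aligned in pairs. The aligned positions without gaps numbered 959 to 1034 a pair. Of these, 61.8% (Cxcr6 and Cx3cr1) to 65.9% (Cxcr4 and Cx3cr1) were identical. The coding sequence lay in 1 exon in Cxcr6 and Cx3cr1. In the others it lay in 2 exons, with 94.9% to 98.9% of it in the larger one. Cxcr6 had the lowest GC content of the coding sequences at 46.7%, against 52.2% to 56.3% for the others.

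Cxcr3, which lies at chrX:101731535-101734269 on the minus strand (ENSMUSG00000050232.6), had the highest level of the 5 receptors. It was at 201 TPM in library 1, 168 TPM in library 2 and 214 TPM in library 3, a mean of 194.6 ± 23.8 TPM (SD, n = 3), which placed it 786th of 22028 protein-coding genes. Its level was 2.62 times that of Foxp3, the defining transcription factor of these cells, which was at 77.6, 86.2 and 59.2 TPM. Library 2 was the low one, and the highest library was 1.27 times as high as the lowest.

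Cxcr5, at chr9:44511787-44561877 on the minus strand (ENSMUSG00000047880.15), came next. It was at 124 TPM in library 1, 92.6 TPM in library 2 and 144 TPM in library 3, with a mean of 120.2 ± 25.8 TPM (SD, n = 3) and place 1392 among protein-coding genes. As for Cxcr3, library 2 was lowest and library 3 highest. Cxcr3 was above Cxcr5 in every library, by a mean of 0.71 ± 0.14 (SD, n = 3) on the log2(TPM + 1) scale. With counts scaled for depth alone, without transcript length, the gap was 0.25 ± 0.14 in the same table and did not exceed its spread, whereas it was 0.64 ± 0.155 and exceeded its spread in the second gene table, also scaled for depth alone.

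Cxcr6, at chr9:123806475-123811760 on the plus strand (ENSMUSG00000048521.8), had the widest spread of the well-counted receptors. It was at 17.7 TPM in library 1, 40.4 TPM in library 2 and 47.3 TPM in library 3, a mean of 35.1 ± 15.4 TPM (SD, n = 3). Library 1 was the low one, and without it the mean was 43.8 TPM.

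Cxcr4, at chr1:128588199-128592293 on the minus strand (ENSMUSG00000045382.6), was the most even receptor. It was at 14.6 TPM in library 1, 17.0 TPM in library 2 and 17.7 TPM in library 3, a mean of 16.4 ± 1.64 TPM (SD, n = 3). Its place was 6442 among protein-coding genes, against 4365 for Cxcr6.

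Cx3cr1, at chr9:119901616-120069879 on the minus strand (ENSMUSG00000052336.7), was close to absent. It had 16 counts in library 1, 3 counts in library 2 and 6 counts in library 3, equal to 0.36, 0.08 and 0.13 TPM. The exact 95% Poisson intervals of these counts were 9.15 to 26.0, 0.62 to 8.77 and 2.20 to 13.1, and they cover counting error only. Scaled to TPM, the intervals ran from 0.21 to 0.58, from 0.02 to 0.23 and from 0.05 to 0.28, so each overlapped the others. In bulk RNA, fewer cells of a type and less RNA per cell cannot be told apart, so a low level may stand for a few cells with much of the transcript or for many with little.

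**Figure D1:**
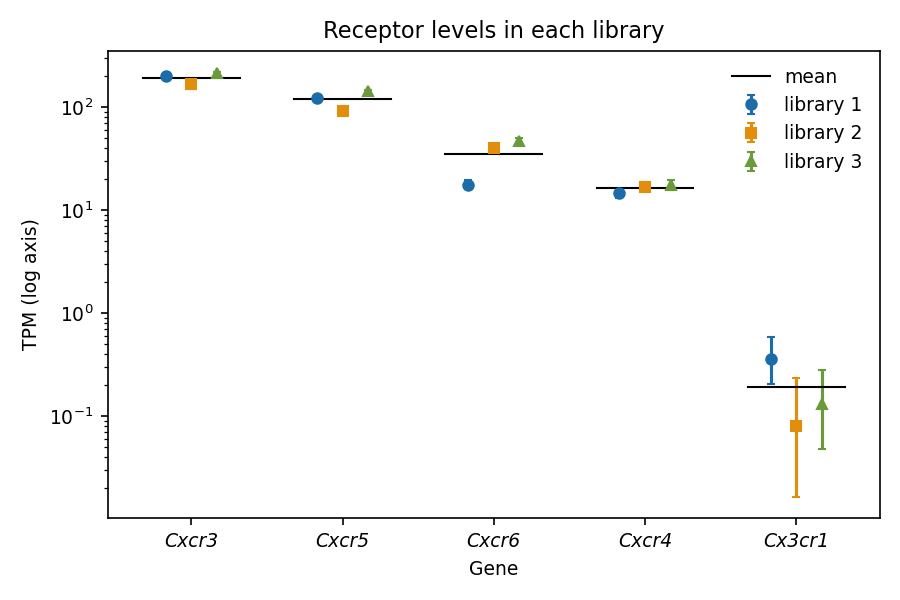
Level of each receptor in TPM (log axis) in libraries 1, 2 and 3, in the order of the mean. Cxcr3 is at 168 to 214 TPM and Cxcr5 at 92.6 to 144 TPM, Cxcr6 spreads from 17.7 to 47.3 TPM and comes near Cxcr4 in library 1, and Cx3cr1 is at 0.08 to 0.36 TPM.

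The order Cxcr3, Cxcr5, Cxcr6, Cxcr4, Cx3cr1 was the same in each library. A pair was taken to differ beyond its spread where the log2 ratio of TPM + 1 had 1 sign in every library and a mean larger than 2 SD, and 9 of the 10 pairs did. The exception was Cxcr6 and Cxcr4, neighbours in the order. Their log2 ratio was 0.27 in library 1, 1.21 in library 2 and 1.37 in library 3, with a mean of 0.95 ± 0.59 (SD, n = 3), and it passed the limit without library 1, at 1.29 ± 0.11. Cxcr5 lay above Cxcr6 by 1.83 ± 0.81 (SD, n = 3), with 2.74 in library 1, 1.18 in library 2 and 1.58 in library 3. That gap did not exceed its spread without library 3 (1.96 ± 1.11) or in the second gene table (counts scaled for depth alone, 1.42 ± 0.77). Cxcr4 lay above Cx3cr1 by 3.87 ± 0.31 (SD, n = 3). Of the summed TPM of the 5 receptors, Cxcr3 made up 53.2 ± 2.80% and Cxcr5 32.6 ± 3.03% (SD, n = 3), so these receptors of inflamed tissue and of the follicle held most of the transcripts.

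Of the 5 receptors, 4 averaged at least 10 counts and could be tested, and 4 of 4 differed between the libraries beyond counting, where 63.9% of all tested genes did. With most genes past the test, this count is no result about the receptors, and the sizes of their spread are described instead. The coefficient of variation (CV) of the scaled counts was 44.8% for Cxcr6, 21.9% for Cxcr5, 12.1% for Cxcr3 and 10.3% for Cxcr4, against a median of 16.95% over all tested genes. Cxcr6 thus lay at the 86.4th percentile of all tested genes and Cxcr4 at the 31.0th.

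Cxcr6 had 429, 895 and 1045 counts in libraries 1, 2 and 3, and a chi-square of 340.04 (edgeR TMM scaling, Benjamini-Hochberg adjusted p = 2.29e-73). Cxcr5 had 3671, 2596 and 4033 counts and a chi-square of 315.96 (adjusted p = 3.61e-68), and Cxcr3 had 4413, 3388 and 4313 counts and a chi-square of 113.78 (adjusted p = 1.27e-24). Counting alone would have given CVs of 3.56%, 1.71% and 1.57% for the 3 genes. Their spread is therefore several times that of counting, and the depth is not what limits it.

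Cxcr4 had 318, 346 and 336 counts and a chi-square of 7.33 (edgeR TMM scaling, Benjamini-Hochberg adjusted p = 0.0411). Its CV of 10.3% compares with 5.48% from counting alone. This call was lost with DESeq2 size factors (chi-square test, adjusted p = 0.0504), with no filter on low counts (0.0794), without library 1 (0.784) and without library 2 (0.0586). Over all alternatives of the chi-square test its adjusted p ran from 0.00706 to 0.784. Cx3cr1, with a mean count of 8.33, was not tested.

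**Figure D2:**
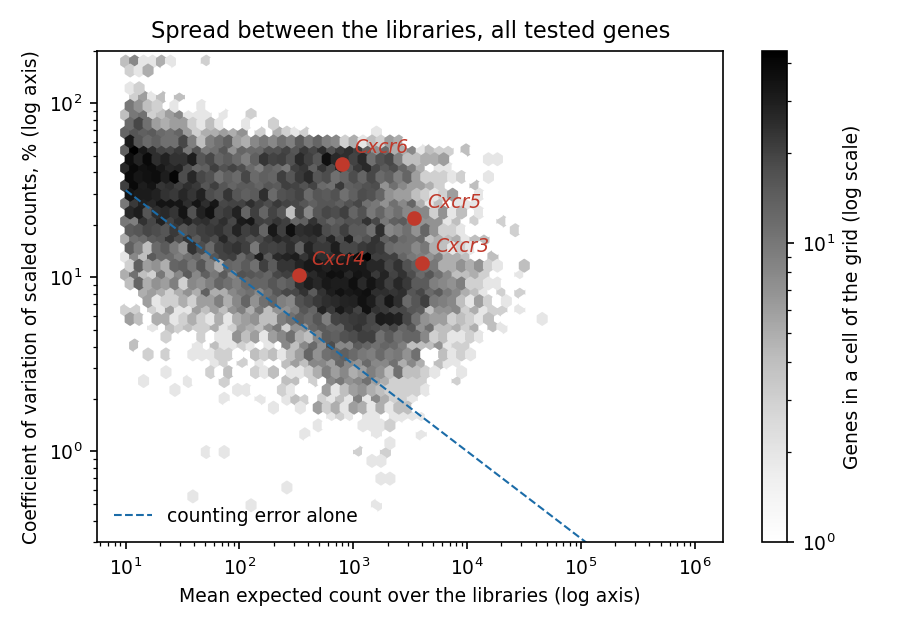
Spread of all tested genes between the 3 libraries, as the CV of scaled counts in percent (log axis) against the mean expected count (log axis), with grey for the number of genes, red points for the tested receptors and a dashed line for the CV that counting alone would give. Cxcr6 at 44.8% stands above the median of 16.95%, and Cxcr4 at 10.3% lies closest of the 4 to the line.

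The low level of Cxcr6 in library 1 was also present in the second gene table, which holds whole-number counts made against another annotation release. Cxcr6 had 216, 450 and 499 counts there in libraries 1, 2 and 3, and relative to the total count the highest library was 2.90 times the lowest, compared with 2.67 times in TPM. Cxcr5 again had its lowest value relative to the total in library 2, and Cxcr4 in library 1. Cxcr3 differed here from its TPM, with 252, 247 and 318 CPM (counts scaled to the library total), so that libraries 1 and 2 were close and library 3 was the high one. In log2(TPM + 1), Cxcr6 in library 1 was 1.26 below the mean of the other libraries, where the median of all 14877 tested genes was 0.04 above it, and 108 genes (0.726%) were as low or lower. Cxcr6 made up 4.95% of the summed receptor TPM in library 1, 12.7% in library 2 and 11.2% in library 3. Among markers of other cells that can carry Cxcr6, the NK cell gene Klrd1 was at 1.37, 6.94 and 10.04 TPM. Prf1 was at 6.74, 12.7 and 12.5 TPM, and both were lowest in library 1. All 5 NK cell genes tested differed between the libraries, beside 70.1% of protein-coding genes tested. Of the 5, 3 were lowest in library 1, against 21.4% of all protein-coding genes that differed. These 3 were Klrd1, Prf1 and Nkg7, and Nkg7 was almost as low in library 2. The other 2 were lowest in library 2, with Klrb1c at 4.51, 3.13 and 5.05 TPM and Gzma at 0.83, 0.40 and 2.82 TPM. Klrb1c and Gzma were named after their values were seen. The whole NK cell list, with 4 of 8 genes at 1 TPM or more in every library, summed to 115, 126 and 166 TPM. In that list, Klra8 was at 0 in every library and Ncr1 at no more than 0.06 TPM. The part of these cells in the Cxcr6 values was not tested.

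**Figure D3:**
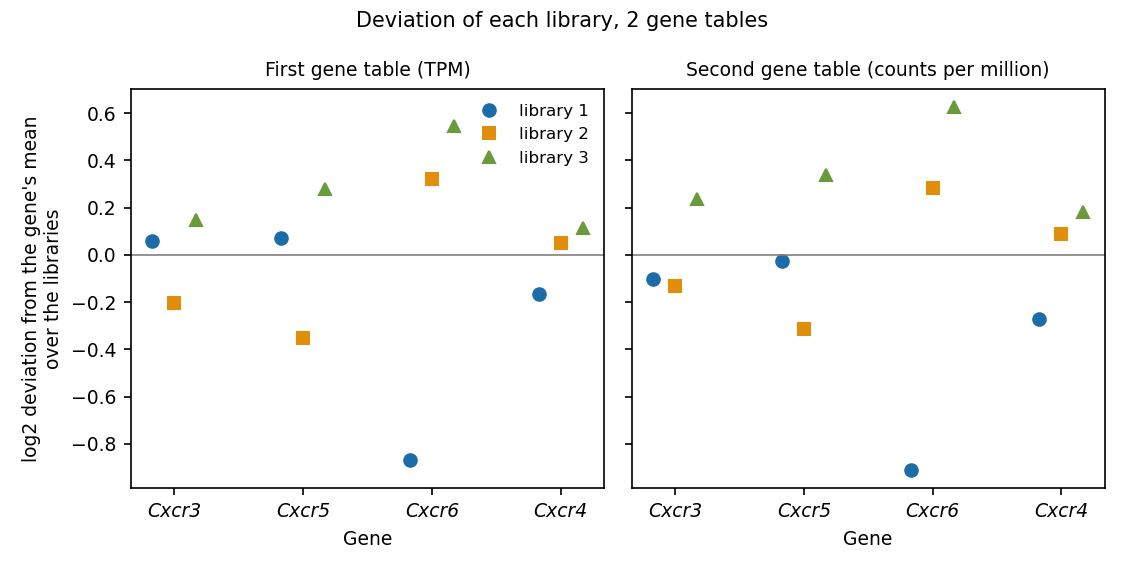
Departure of each receptor from its own mean over the 3 libraries on a log2 scale, in the first gene table (TPM) and in the second (counts relative to the total count). Cxcr6 drops in library 1 in both tables. Cxcr5 is low in library 2 in both, and Cxcr3 is low in library 2 in the first table while libraries 1 and 2 are close in the second.

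Local GC content was examined beside the departure of library 3. The highest GC content of any 200-base window was 61.5% in Cxcr3, 60.5% in Cxcr5, 58.0% in Cxcr4 and 51.5% in Cxcr6, all under the median of 63.5% over tested genes. None of the 4 tested receptors was lowest in library 3, where 49.8% of the protein-coding genes that differed were lowest. The trend on this GC measure was then removed from each library, a step chosen after seeing the data. All 4 still differed between the libraries by the chi-square test, beside 58.6% of all tested genes, so this count is no result about the receptors.

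Genes with the most similar profile over the 3 libraries were ranked by the largest difference in log2 departure from the gene's mean, among 9309 other protein-coding genes averaging at least 100 counts. For Cxcr6, the nearest were Tdrp at 0.10, Mrpl23 at 0.11 and Map4k4 at 0.12. Tdrp was at 8.46, 20.6 and 21.4 TPM, and Map4k4, a kinase, at 6.40, 13.2 and 16.0 TPM, so both were likewise low in library 1. Few genes came near Cxcr6: 7 genes (0.08%) lay within 0.2 of its profile, against 3466 (37.2%) for Cxcr3, 3428 (36.8%) for Cxcr4 and 629 (6.76%) for Cxcr5. With 3 libraries, a close profile among so many genes is a description only.

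The nearest genes to Cxcr5 were Alas2, the heme synthesis enzyme of red cell precursors, Zfp874a and Sdhaf3, at distances of 0.0007, 0.011 and 0.015. Alas2 was at 8.25, 5.91 and 9.67 TPM, and the red cell list as a whole, with 5 of 5 genes detected, summed to 1389, 1097 and 1750 TPM. Library 2 was lowest and library 3 highest for Cxcr5 and for these red cell genes. The part of red cell RNA in the Cxcr5 values was not tested. The nearest to Cxcr3 were Sypl, Timm8a1 and Asb3, at 0.0045 to 0.0068. For Cxcr4, Anapc11 and Ddx3x were among the nearest, at 0.0041 and 0.0044, and for Cx3cr1 they were Alg14, Il2rb and Gbp5, at 0.0043 to 0.0086. The profile of Cx3cr1 rests on 16, 3 and 6 counts. At its level, the 1 added to TPM flattens the differences between libraries, so its nearest genes carry little meaning.

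Transcript tables split each gene over its annotated transcripts by a model. Cxcr3 has a single transcript, Cxcr3-201, which held 100% of its level. Cxcr4 has 2. Cxcr4-201, of 1805 bases, held 90.9%, 94.3% and 80.97% of the gene's TPM in libraries 1, 2 and 3, and Cxcr4-202 held 9.07%, 5.75% and 19.0%, which gives 88.7 ± 6.91% and 11.3 ± 6.91% (SD, n = 3). The first 60 coding bases of each show how they differ, with the 6 bases absent from Cxcr4-202 in capitals. They lie on the minus strand of mm10 within chr1:128589863-128592209 for Cxcr4-201 and chr1:128589857-128592209 for Cxcr4-202, across an intron.
Cxcr4-201: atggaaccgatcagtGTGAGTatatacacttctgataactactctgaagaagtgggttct
Cxcr4-202: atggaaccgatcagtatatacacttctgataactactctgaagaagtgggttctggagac
Cxcr4-202 is annotated over 902 bases with its 3' end not found, and 899 of its bases lie in Cxcr4-201. It rested on 14.7, 9.97 and 34.4 expected counts, or 5.92 ± 3.85% (SD, n = 3) of the gene's counts. Cxcr4-201 was thus the predominant form in every library on either scale, and the larger share of Cxcr4-202 in library 3 rests on those 34.4 counts.

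The forms of Cxcr6 differ at the start of the protein. The first coding bases are shown with the 21 bases present only in Cxcr6-202 in capitals, at chr9:123809936-123809995 for Cxcr6-201 and chr9:123809915-123809995 for Cxcr6-202, on the plus strand of mm10.
Cxcr6-201: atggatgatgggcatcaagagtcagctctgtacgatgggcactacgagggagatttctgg
Cxcr6-202: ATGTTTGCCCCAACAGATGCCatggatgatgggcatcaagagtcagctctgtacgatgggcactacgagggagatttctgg
Cxcr6-202 was assigned 100% of the gene's TPM in library 1, 19.2% in library 2 and 0% in library 3, and Cxcr6-201 the rest. The transcripts share 1873 bases, which is 98.7% of Cxcr6-201, and differ in 24 and 34 bases of their own. The split therefore rests on the reads over those few bases, while the level of the gene does not depend on it, since the transcripts have 1897 and 1907 bases.

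For Cxcr5, Cxcr5-201 held 87.9 ± 1.83% (SD, n = 3) of the TPM. Cxcr5-205, annotated over 358 bases with its end not found, held 10.8 ± 1.96% of the TPM but 1.45% of the counts. The small count of Cx3cr1 was assigned to Cx3cr1-202 and Cx3cr1-203, and none to Cx3cr1-201.

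**Figure D4:**
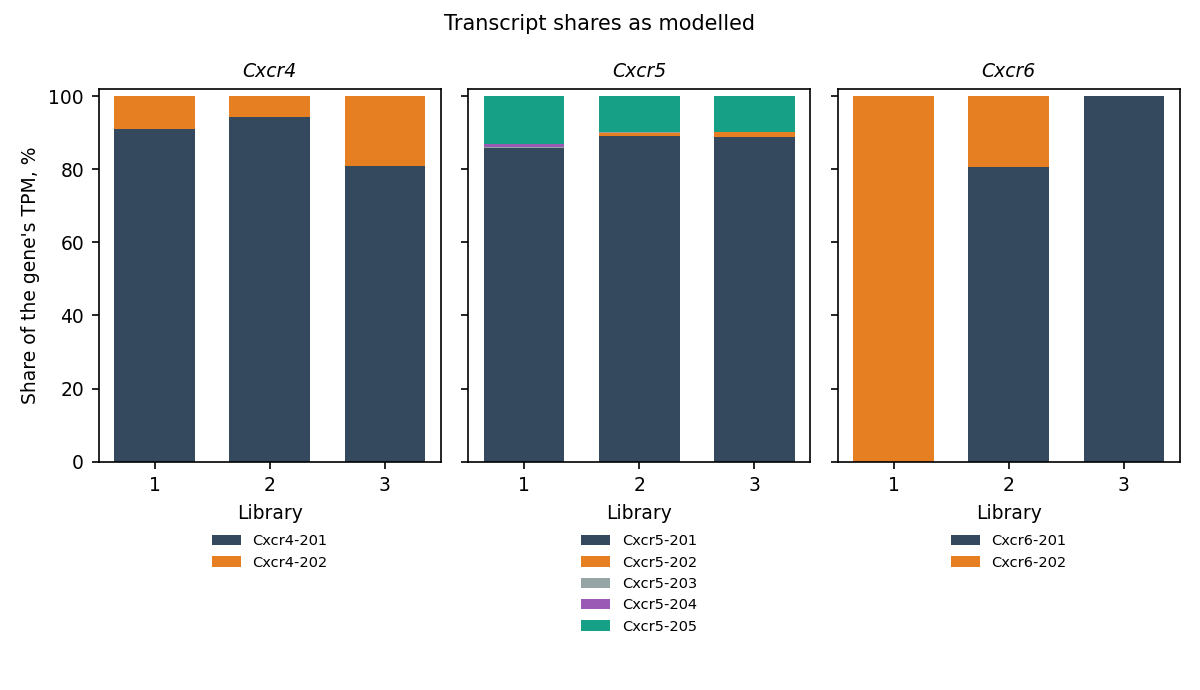
Share of each annotated transcript in its gene's TPM, in percent, as stacked bars for libraries 1, 2 and 3, for Cxcr4, Cxcr5 and Cxcr6. The major form of Cxcr4 holds 80.97% to 94.3% and that of Cxcr5 a mean of 87.9%, whereas the split of Cxcr6 runs from 100% Cxcr6-202 in library 1 to 100% Cxcr6-201 in library 3.

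Whether the counting used strand is not stated in the sources used here, so genes that overlap a receptor are given with their values. Cxcr6 lies wholly within the span of Fyco1, at chr9:123789500-123851899 on the opposite strand, with 0 shared exon bases. Fyco1 was at 50.5, 55.3 and 57.3 TPM and so was far more even than Cxcr6. The 3' end of Cxcr5 shares 110 exon bases with Bcl9l on the opposite strand, at a mean of 7.18 TPM. The long span of Cx3cr1 covers 9 other genes, of which Gm33858 shares 78 exon bases and the others, such as Wdr48 and Csrnp1, share 0. Cxcr3 and Cxcr4 overlap no other gene.

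The ligands of these receptors were nearly all below detection in the cells' own RNA. Of 7 ligand genes, 1 was at 1 TPM or more in every library, and the median level was 0.33 TPM, against 0.89 TPM and 47.4% of genes detected over all 22028 protein-coding genes. The detected ligand was Cxcl10, an interferon-induced ligand of Cxcr3, at 22.8, 14.3 and 18.4 TPM, which differed between the libraries by the chi-square test (adjusted p = 4.23e-05). Cxcl9 and Cxcl11, the other ligands of Cxcr3, were at means of 0.21 and 0.22 TPM. Cxcl12, Cxcl13 and Cxcl16, the ligands of Cxcr4, Cxcr5 and Cxcr6, were at means of 0.03, 0.47 and 0.33 TPM, and Cx3cl1 was at 0.70 TPM.

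Other receptors of the same kind were low too. Of 8 related receptors, Ccrl2, a non-signalling receptor that presents the attractant chemerin, was the 1 detected in every library, at 17.1, 13.2 and 12.7 TPM (chi-square test, adjusted p = 0.0105). Ackr4, a scavenger of chemokines, stood at the limit with 0.73, 1.04 and 1.01 TPM. The neutrophil receptors Cxcr1 and Cxcr2 were at means of 0.05 and 0.08 TPM, the scavengers Ackr1, Ackr2 and Ackr3 at 0.02, 0.23 and 0.05 TPM, and Xcr1, a receptor of cross-presenting dendritic cells, at 0.44 TPM. Ackr3 also binds Cxcl12, so Cxcr4 was the detected receptor for that ligand.

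The machinery that carries the signal inward was broadly expressed. Of 23 signal transduction genes, 22 were detected in every library, with a median of 64.6 TPM. The highest were Rac2, a GTPase of blood cell migration, at 2657 ± 135 TPM, Cdc42, a GTPase of cell polarity, at 763 ± 67.5 TPM, and Dock2, which activates Rac downstream of chemokine receptors, at 558 ± 27.4 TPM (SD, n = 3). Rassf5, an adaptor in integrin activation, followed at 423 ± 28.1 TPM and Rhoa, a GTPase of contraction, at 277 ± 85.7 TPM. The inhibitory G protein gene Gnai1 was at 0 TPM in every library, whereas Gnai2 was at 268, 260 and 71.0 TPM.

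Of the 22 signal transduction genes tested, 21 differed between the libraries, beside 70.1% of protein-coding genes tested, and 12 of these were lowest in library 3, as were 49.8% of the protein-coding genes that differed. Gnai2, and Gnb2, which encodes a partner subunit and was at 168, 169 and 49.6 TPM, were named after their values were seen. Both were lowest in library 3, where no tested receptor was. Their highest GC windows were 77.5% and 66.0%, against 63.5% for the median tested gene, and the part of GC content in these values was not tested for single genes.

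Of 15 genes that desensitise or turn over such receptors, 13 were detected in every library, with a median of 46.2 TPM, and 12 of 14 tested differed between the libraries, beside 70.1% of protein-coding genes. The highest were the regulators of G protein signalling Rgs1 at 317 ± 26.5 TPM, Rgs10 at 255 ± 23.2 TPM, Rgs19 at 191 ± 6.12 TPM and Rgs14 at 132 ± 13.5 TPM (SD, n = 3), which speed up the shutdown of G proteins. Arrb2, a beta-arrestin that uncouples and internalises receptors, was at 151 ± 27.1 TPM. Rgs19 did not pass the chi-square test (adjusted p = 0.240). Grk3, a receptor kinase, and Rgs18 were below 1 TPM in every library, with means of 0.37 and 0.09 TPM.

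Enzymes that modify these receptors or their ligands were present as well, with 4 of 5 genes detected in every library and 5 of 5 differing between libraries, beside 47.4% and 70.1% of protein-coding genes. Dpp4, a peptidase that trims chemokines such as Cxcl10 and Cxcl12, was at 136 ± 11.1 TPM (SD, n = 3). Tpst2, which sulfates tyrosines at receptor N-termini, was at 160, 143 and 38.8 TPM, while its relative Tpst1 was at 1.98, 2.38 and 0.62 TPM, so both were low in library 3. Adam10 and Adam17, proteases that shed Cx3cl1 and Cxcl16 from membranes, were at 119, 91.5 and 54.9 TPM and at 65.7 ± 4.08 TPM.

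**Figure D5:**
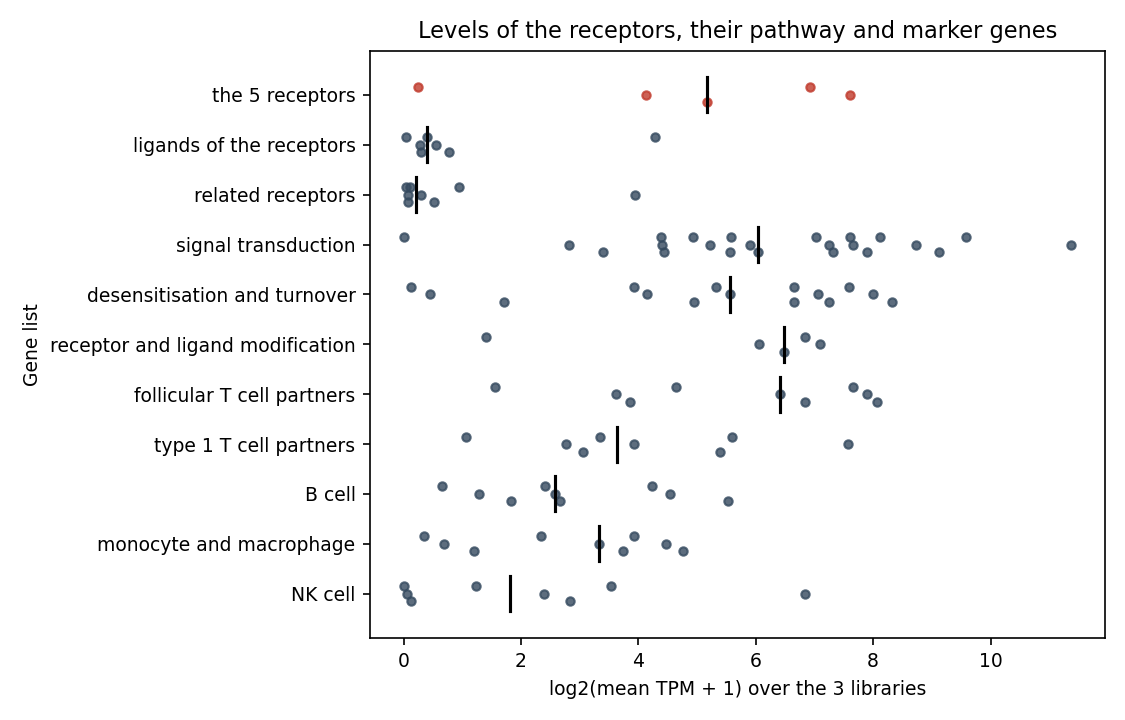
Levels as log2(mean TPM + 1) over the 3 libraries for the receptors, their pathway lists and markers of other cells, 1 point a gene, with a bar at each list's median. Ligands and related receptors lie mostly below 1 TPM apart from Cxcl10 and Ccrl2, and signal transduction and desensitisation genes have medians of 64.6 and 46.2 TPM.

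Transcription factors tied to the receptors in T cells were detected in 12 of 13 cases, at a median of 12.8 TPM. Among the higher ones, Stat4, which acts below interleukin-12, was at 188 ± 18.1 TPM, Hif1a, the hypoxia factor, at 153, 127 and 47.2 TPM, and Maf at 33.1 ± 4.17 TPM (SD, n = 3). Tbx21, which encodes T-bet and is known to drive Cxcr3, was at 8.18, 7.05 and 2.16 TPM. It was thus lowest in library 3, where Cxcr3 was highest. Bcl6, the factor of follicular T cells, was at 21.8, 21.7 and 28.7 TPM and, like Cxcr5, was highest in library 3. Klf2, which holds T cells in circulation, was at 10.2, 15.8 and 11.1 TPM. Eomes was below 1 TPM in every library. The highest GC window of Tbx21 was 76.5% and that of Hif1a 77.0%, values above the median tested gene, and the part of GC content in their low values in library 3 was not tested for single genes. Of the 13 factors, 12 differed between libraries by the chi-square test, beside 70.1% of protein-coding genes.

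Partners of Cxcr5 in follicular T cells were detected in 9 of 9 cases, at a median of 84.1 TPM. Sh2d1a, an adaptor for contacts with B cells, was at 264, 212 and 321 TPM, in the order of Cxcr5 itself. Icos, a co-stimulator, was at 236 ± 34.5 TPM (SD, n = 3), and Pdcd1, which encodes the inhibitory receptor PD-1, was at 224, 168 and 209 TPM. Cd200 was at 114 ± 14.2 TPM and Btla at 84.1 ± 10.4 TPM. The 9 genes summed to 995, 815 and 1043 TPM, lowest in library 2 as Cxcr5 was. All 9 differed between the libraries, as did 70.1% of the protein-coding genes tested. Their lowest value was in library 2 for 6 of them, against 28.8% of all protein-coding genes that differed. This was not particular to the follicular list, since 5 of 9 T cell identity genes and 5 of 5 red cell genes were also lowest in library 2. It was in library 3, where Cxcr5 was highest, for 2 of them, Tox2 at 20.5, 13.7 and 6.14 TPM and Ascl2 at 2.53, 2.25 and 1.07 TPM, named after their values were seen.

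Partners of Cxcr3 in type 1 T cells were detected in 7 of 8 cases at a lower median of 11.7 TPM. Besides Stat4, the receptors for interleukin-18 and interleukin-12 led the list, with Il18r1 at 47.4 ± 4.87 TPM, Il12rb1 at 41.1 ± 14.1 TPM and Il18rap at 14.3 ± 1.27 TPM (SD, n = 3). Ifng, the type 1 cytokine that induces the ligands of Cxcr3, was at 7.11, 9.09 and 11.3 TPM. The gene not detected throughout was Il12rb2, at 0.54, 1.12 and 1.64 TPM. All 8 differed between the libraries, beside 70.1% of protein-coding genes tested. Of them, 4 were lowest in library 1, as Cxcr6 and Cxcr4 were, 1 in library 2 and 3 in library 3, where 21.4%, 28.8% and 49.8% of all protein-coding genes that differed had their lowest value in libraries 1, 2 and 3.

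Marker genes of other cells that carry these receptors were detected beside the T cell genes. Which cells this RNA came from was not tested. B cells, which carry Cxcr5 and Cxcr4, had 8 of 9 markers detected in every library, with Cd79b at 45.1, Cd22 at 22.2 and Cd79a at 17.9 TPM on average and none at 0. The B cell list summed to 96.0, 98.6 and 118 TPM in libraries 1, 2 and 3. Cxcr5 was at 124, 92.6 and 144 TPM there, above the sum in libraries 1 and 3 and below it in library 2. Cxcr4 was at 14.6, 17.0 and 17.7 TPM, below the sum in every library. A sum of marker levels does not give the size of a contribution to either receptor. Monocytes and macrophages, known for Cx3cr1 and Cxcr4, had 6 of 9 markers detected and none at 0, summing to 82.1, 89.7 and 95.1 TPM. Of these, Ly6c2, which some T cells also express, was at 11.3, 22.2 and 44.4 TPM, Ccr2 at a mean of 21.1 TPM and Csf1r at 14.2 TPM. The part of these cells in the receptor values was not tested.

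Among the remaining lists, Nkg7 led the NK cell markers at 113 TPM, and 1 of 2 CD8 T cell markers, 2 of 3 of NKT and gamma-delta T cells, 1 of 7 of dendritic cells and 3 of 4 of plasma cells were detected in every library. Cd8b1 was at a mean of 17.9 TPM and Cd8a at 1.02 TPM, Tcrg-C1 at 7.06 TPM and Trdc at 2.88 TPM, and Zbtb46 at 1.42 TPM. In the plasma cell list, Igha was at 3.77, 92.8 and 1.62 TPM, high in library 2 alone, where Cxcr3 and Cxcr5 had their lowest TPM and Cxcr6 and Cxcr4 lay between those of the other libraries.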

How the data were processed

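PolyA-selected RNA was measured in 3 libraries of 1 biosample. The authors' deposited tables give expected counts, TPM and FPKM per gene and per transcript in each library, and the transcript table also holds each transcript's percent of its gene's TPM, per the file headers. The column names are those RSEM writes, and the annotation is GENCODE M21 on mm10, per the deposited text. A second deposited gene table holds whole-number counts for GENCODE M4. For the aligner, the counter and the use of strand, names and settings were not given in the sources used here. Rows for tRNA (26248), ERCC spike-ins (96) and 1 other sequence held 0.231% to 0.291% of expected counts and stayed out. Depth was 20996194, 18456254 and 17535472 expected counts and 6339932, 5775622 and 5056487 counts in the second table.

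Expected counts were rounded to whole numbers. Each gene averaging 10 counts or more was compared with Poisson sampling by Pearson's chi-square test (2 degrees of freedom), with library sizes scaled by edgeR 4.0.16 TMM factors and Benjamini-Hochberg adjustment over all tested genes at 0.05. The scripts ran in Python 3.11.15 with scipy 1.17.1 and R 4.3.3 and were tested on simulated data. Levels are TPM as deposited. Ratios use log2(TPM + 1), which understates those of low genes. Exact Poisson intervals are at 95%. The reads carry no molecular identifiers and are not independent molecules, so intervals cover counting error only.

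The rule for the receptors uses names alone, but the receptors and the lists were chosen with earlier results of these data known. Named genes are the 5 receptors, the 3 protein-coding genes most alike in profile to each, all genes of the ligand, related receptor and modification lists, the 5 highest of the other pathway lists with those under 1 TPM in every library, Tbx21, Bcl6 and Klf2, the 3 highest of each list of other cell types with those at 0, and overlapping genes. A few genes named by this rule are left out of the text. Alternatives were DESeq2 1.42.0 size factors or total counts, other count filters, the second table, other detection limits and pseudocounts, FPKM, TPM over nuclear protein-coding genes, and leaving out each library. A correction for local GC content (lowess, fraction 0.3) was chosen after seeing the data.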

Additional observations from a re-analysis of the deposited data

How the results depend on the processing

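Of 218 alternative values over 38 results, 197 were rated the same, and none reversed. A chi-square result had to keep its side of the threshold. Levels, shares and pair ratios had to stay within their SD, and counts of genes within a set factor. Exceeding the spread was not part of the rating of pairs. Cxcr5 over Cxcr6 no longer exceeded it in the second table or without library 3, while Cxcr6 over Cxcr4 did so without library 1. Some values could hardly change, such as the share of the only Cxcr3 transcript and the levels from FPKM rescaled to the same total. The 9501 genes that differed between libraries became 6222 in the second table, where 10964 genes were tested, and 4489 to 8029 when 1 library was left out, the lowest without library 3. Removing the GC trend left 8723 genes (58.6%). Of the receptors, 3 differed with DESeq2 size factors, and Cx3cr1 passed the chi-square test without a filter on low counts (adjusted p = 0.0359). Cxcr3 over Cxcr5 was 0.25 when first-table counts were adjusted only for depth, and 0.64 when second-table counts were. Cxcr4 over Cx3cr1 was 5.95 with a pseudocount of 0.1, 4.71 in the second table and 3.38 in FPKM. Over nuclear protein-coding genes, the levels were 237 TPM for Cxcr3, 147 TPM for Cxcr5 and 20.1 TPM for Cxcr4. A limit of 0.5 TPM found 2 ligands, 2 related receptors and 2 CD8 T cell markers, and a limit of 5 TPM found 3 B cell, 2 NK cell, 1 NKT and gamma-delta T cell and 0 dendritic cell markers. Leaving out 1 library gave 1 to 2 related receptors. For other changes the cause was not tested. No paired analysis was possible because the libraries form 1 group. Depth limits Cx3cr1 and the transcript split of Cxcr4.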
